A study of Lemna gibba and Lemna japonica and Spirodela polyrhiza with 12 samples.

Results

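Loci that gave small RNA reads from both strands of a nuclear chromosome, but with too small a part of their reads in the sizes cut by Dicer-like enzymes to get a size call, were described in 4 duckweeds. They are called both-strand loci without size call here. They were taken from the 4 lists by fixed labels: no size call, no microRNA hairpin, no strand assigned and a place on a numbered chromosome. This gave 4748 loci of the 79572 in all lists, of which Wa8730 held 1846, Lj8627 1643, Lg7742a 689 and Sp9509 570. The loci were chosen by measured values, the size and the strand of their reads, so the absence of a size and of a strand is their definition and no result. The shares of reads behind both calls were not used here, so loci just inside and just outside the calls could not be set side by side.

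The samples were whole fronds, the leaf-like plant body of these floating plants, from sterile cultures in a sucrose medium under long days. The accession of Wolffia australiana was Wa8730 and that of Spirodela polyrhiza was Sp9509. The genus Lemna was sampled as Lg7742a, of Lemna gibba, and as Lj8627, of the hybrid Lemna japonica. Each was grown without any treatment and sampled as 3 biological replicates, 12 libraries in all. The assembly of the hybrid has M chromosomes and T chromosomes, called so by the last letter of their names. The lists pool the 3 replicates, so the spread between them is unknown, no accession was tested against another, and the 95% intervals given cover counting error only. In whole fronds, fewer cells that make a small RNA and fewer copies per cell cannot be told apart.

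In plants, Dicer-like enzymes cut double-stranded RNA into small RNAs of 21 to 24 nt. The 24 nt class guides DNA methylation of repeats, and the shorter classes mostly act on transcripts. Because both strands of a double-stranded RNA are cut, loci of small interfering RNAs usually give reads from both strands. Fragments of abundant cellular RNAs, such as ribosomal RNA, come in many sizes and usually from a single strand. Loci with both strands and no size call have the strands of the first kind without its size call. How many of their reads had the Dicer sizes was not measured here. No genome sequence or gene annotation was used, so no sequence is shown and no locus is placed in a gene.

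Both-strand loci without size call were a small class in every list. They made up 9.21% of the nuclear loci of Sp9509 (8.52 to 9.96), 7.0% of those of Lg7742a (6.52 to 7.52), 6.58% of those of Lj8627 (6.28 to 6.90) and 5.0% of those of Wa8730 (4.78 to 5.23). Per Mb of chromosome up to the last locus, Wa8730 had 5.25 of them, Sp9509 4.12, Lj8627 2.19 and Lg7742a 1.42. The order of the shares rested on loci of few reads: with at least 10 reads the share was 8.89% in Sp9509, 4.04% in Lg7742a, 3.67% in Wa8730 (3.46 to 3.90) and 2.68% in Lj8627 (2.32 to 3.10), the lowest.

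Their reads were few. They held 32081 reads in Sp9509, 27586 in Wa8730, 14270 in Lj8627 and 8486 in Lg7742a. Of all reads in nuclear loci this was 0.450% in Sp9509, 0.491% in Wa8730, 0.271% in Lj8627 and 0.172% in Lg7742a. MicroRNA hairpins take most reads, and without them the class held 1.51%, 2.09%, 1.34% and 0.854% in the same order.

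Among all nuclear loci without size call, the both-strand ones were 44.2% of loci in Wa8730 (42.7 to 45.7), 31.1% of loci in Lj8627 (29.8 to 32.3), 21.9% of loci in Lg7742a (20.5 to 23.4) and 18.8% of loci in Sp9509 (17.5 to 20.3). Of the reads they held far less than of the loci: 8.13%, 5.01%, 1.97% and 4.54% in the same order. Most reads without a size call therefore lay in loci of a single strand.

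The median locus held 16 reads in Sp9509, 11 in Wa8730, 5 in Lg7742a and 4 in Lj8627. These levels sat near the start of each list, since the smallest count listed was 3 reads for Lg7742a and Lj8627, 4 for Wa8730 and 5 for Sp9509. In Lj8627, 54.0% of the loci held 3 or 4 reads, and in Lg7742a 47.6% did. In Wa8730 the loci gathered in a narrow range, with 853 loci of 10 to 19 reads and 748 loci of 5 to 9 reads. At 3 to 5 reads pooled over 3 libraries, both the strand and the size of a locus rest on very few molecules. Loci of 100 reads or more numbered 34 in Sp9509, 13 in both Wa8730 and Lj8627, and 11 in Lg7742a.

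**Figure D1:**
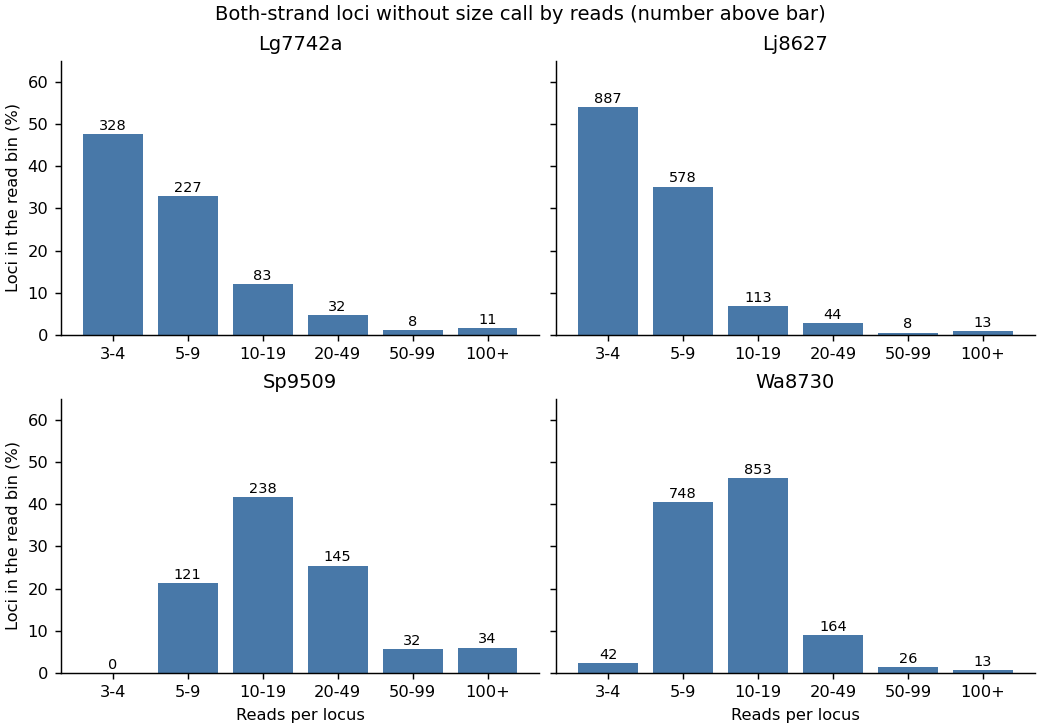
Share of both-strand loci without size call (vertical axis, %) in 6 bins of reads per locus (horizontal axis), one panel per accession, each pooled over 3 replicates, with the number of loci above each bar. The highest bar stands at 3 to 4 reads in Lg7742a and Lj8627 and at 10 to 19 reads in Sp9509 and Wa8730.

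Among both-strand loci, hairpins left out, the share without a size call was larger at low counts than at 100 reads or more. In Lg7742a it was 21.4% of loci with 3 or 4 reads and 6.21% of loci with 100 reads or more, and in Lj8627 it was 20.9% and 6.57%. Sp9509 had 49.2% at 5 to 9 reads and 11.6% at 100 or more. In Wa8730 the share was 26.6% at 3 or 4 reads, 5.77% at 10 to 19 and 1.53% at 100 or more. At 100 reads or more, a both-strand locus of Wa8730 thus had a size call in all but 1.53% of cases.

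The same loci can be read against strand. Of loci without size call and with 100 reads or more, 8.35% were both-strand in Sp9509, 3.93% in Lg7742a, 3.51% in Wa8730 and 3.47% in Lj8627. Among size-called loci of that depth the both-strand share was 61.1% in Sp9509, 41.7% in Lg7742a, 85.3% in Wa8730 and 42.0% in Lj8627. Loci without size call of that depth were thus mostly of a single strand, in the same libraries in which 41.7% to 85.3% of size-called ones had both. In Wa8730 the both-strand share of loci without size call was highest, 59.2%, at 10 to 19 reads, and in Lj8627, 47.7%, at 3 or 4 reads.

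No both-strand locus without size call was shorter than 401 bp, and most were hardly longer. Between 401 and 425 bp lay 89.2% of them in Lj8627, 83.6% in Wa8730, 81.3% in Lg7742a and 68.6% in Sp9509. In the same order, both-strand size-called loci had 77.9%, 60.2%, 75.1% and 50.3% there. Single-strand loci without size call had 63.9%, 61.3%, 61.7% and 66.3%, and their shortest locus also had 401 bp in every accession. In the class, the median length is given next. The median length of both-strand loci without size call was 414 bp in Lj8627 and in Wa8730, 417 bp in Lg7742a and 419 bp in Sp9509. The sources used here do not say how much of a locus its reads cover, so these lengths are an upper bound on the stretch that gave reads.

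Longer loci were those with more reads. Over 600 bp were 75 loci in Sp9509 (13.2%), 149 in Wa8730 (8.07%), 55 in Lg7742a (7.98%) and 73 in Lj8627 (4.44%). They held 59.6%, 29.0%, 49.0% and 23.1% of the reads of the class in the same order. Across loci, Spearman's rho between reads and length was 0.66 in Sp9509 (n = 570), 0.62 in Lg7742a (n = 689), 0.51 in Wa8730 (n = 1846) and 0.50 in Lj8627 (n = 1643). The loci of an accession share the same pooled libraries, so these values only describe its list.

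**Figure D2:**
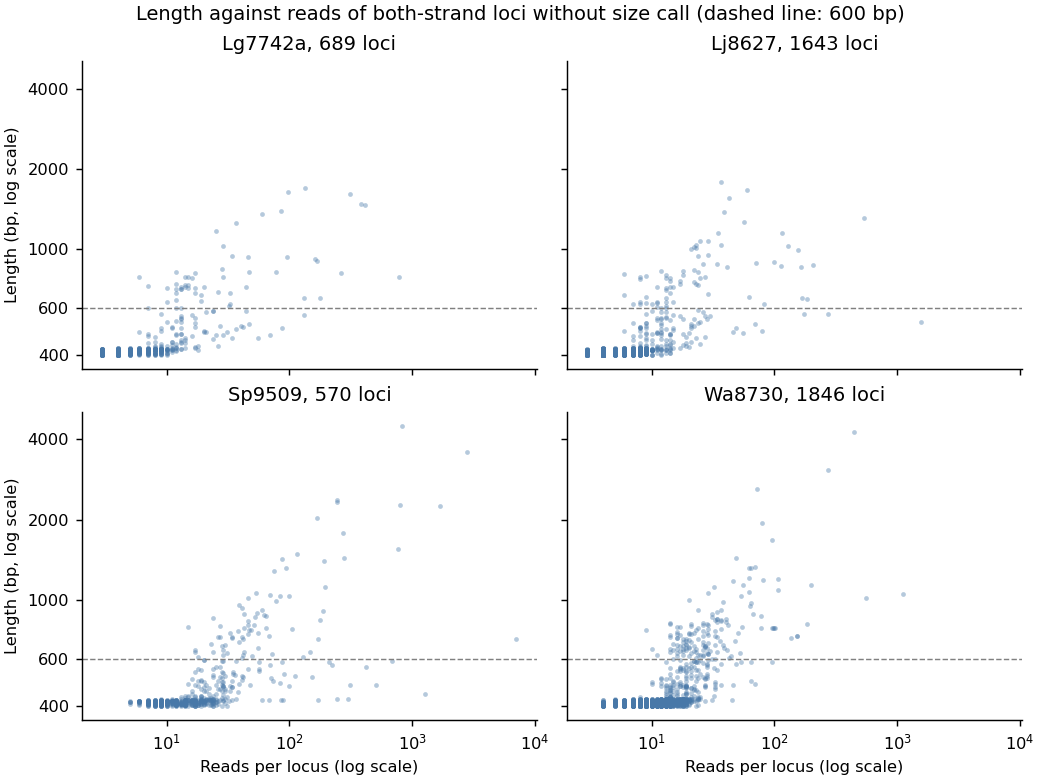
Length in bp (vertical axis, log scale) against reads (horizontal axis, log scale) of each both-strand locus without size call, one point per locus and one panel per accession; the dashed line marks 600 bp. Most points lie in a band just above 400 bp up to about 20 reads, and the long loci of Sp9509 and Wa8730 reach 4493 and 4248 bp.

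Among the deepest loci, those of 100 reads or more, both-strand loci without size call were shorter than both-strand loci with one. The median was 745.5 bp against 1816 bp for size-called loci in Sp9509, and 1019 bp against 2157 bp in Wa8730. In Lj8627 the medians were 862 and 1124 bp and in Lg7742a 902 and 1026.5 bp, in the same order. Single-strand loci without size call of that depth were shorter still, with medians of 515 bp in Sp9509, 520 bp in Wa8730, 553 bp in Lj8627 and 628 bp in Lg7742a. At 10 to 19 reads the both-strand medians without and with a size call lay within 24 bp of each other in every accession.

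The loci with most reads were few and carried much of the class. The top 5 held 42.6% of its reads in Sp9509, 25.4% in Lg7742a, 19.4% in Lj8627 and 9.44% in Wa8730. In Sp9509, a locus of 711 bp on chr9, from 6736315 to 6737025 of assembly asm3v1, held 7071 reads, 22% of the class and 9945 reads per kb. Its nearest size-called locus, a 21 nt locus of 7 reads, lay 50070 bp away. This was the deepest locus of the class in the 4 lists.

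The other leading loci of Sp9509 lay closer together. On chr7, a locus of 3602 bp from 5530326 to 5533927 held 2797 reads, and the longest of the class, 4493 bp from 5524239 to 5528731, held 820 reads. Their nearest size-called locus was the same, a 24 nt locus of 408 bp with 11 reads. On chr5, 2252 bp from 4423551 to 4425802 held 1701 reads, 7451 bp from a 22 nt locus of 1165 reads. A short locus of 445 bp on chr2, from 1734837 to 1735281, held 1280 reads with no size-called locus within 47 kb.

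In Lg7742a, on assembly asm202106v1, the leading locus was 787 bp on chr18, from 3919782 to 3920568, with 788 reads. Further along chr18 were 2 neighbours: 1467 bp from 10934257 to 10935723 with 414 reads and 1607 bp from 10938410 to 10940016 with 310 reads. The remaining places were held by 1479 bp on chr9 from 22627350 to 22628828 with 381 reads and 817 bp on chr9 from 6090947 to 6091763 with 261 reads. Size-called loci nearest to these 5 lay between 2513 and 54298 bp away, and the neighbour with most reads was a minus-strand 24 nt locus of 301 reads. The longest of the class in Lg7742a, 1702 bp on chr1 from 10421978 to 10423679, held 135 reads.

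A locus of 533 bp on chr18T, from 1909756 to 1910288, led Lj8627 with 1573 reads, 11.0% of its class and 2951 reads per kb. It was followed by 1312 bp on chr1T from 25011558 to 25012869 with 533 reads, 571 bp on chr13M from 12475268 to 12475838 with 273 reads, 869 bp on chr12M from 7581335 to 7582203 with 208 reads and 648 bp on chr19M from 585022 to 585669 with 184 reads. The nearest size-called locus of each was a 21 or 22 nt locus of 3 to 7 reads. The longest, 1784 bp on chr20M from 5958144 to 5959927, held only 37 reads.

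The neighbours of the leading loci in Wa8730 were all both-strand 24 nt loci. Of all size-called loci there, 91.4% were 24 nt, and both-strand 24 nt loci made up 75.3% of all nuclear loci. The leading locus was 1049 bp on chr7, from 9543019 to 9544067, with 1125 reads, 4377 bp from its neighbour. A locus of 1019 bp on chr8, from 9544706 to 9545724, held 562 reads, and one of 1139 bp on chr1, from 3116965 to 3118103, held 199 reads. The longest, 4248 bp on chr1 from 18613919 to 18618166, held 443 reads and ended 90 bp before a 24 nt locus of 44 reads. On chr9, 3081 bp from 3756101 to 3759181 with 275 reads lay 11 bp from a 24 nt locus of 16 reads.

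Distance to the nearest size-called locus was not used to choose the loci. In all 4 accessions, both-strand loci without size call lay nearer to a size-called locus than single-strand loci without size call did, and farther than both-strand size-called loci did from another one. A size-called locus lay within 1 kb, edge to edge, of 46.1% of them in Wa8730 (43.8 to 48.4), 21.9% in Sp9509 (18.7 to 25.5), 12.7% in Lj8627 (11.2 to 14.4) and 10.6% in Lg7742a (8.51 to 13.1). For single-strand loci without size call these shares were 10.4% for Wa8730, 3.66% for Sp9509, 6.36% for Lj8627 and 6.05% for Lg7742a. Both-strand size-called loci had another within 1 kb in 64.7%, 60.0%, 23.7% and 20.2% of cases in the same order. Their intervals did not overlap with those of both-strand loci without size call in any accession.

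The median distance was 1246 bp in Wa8730, 10101 bp in Lj8627, 11571.5 bp in Sp9509 and 19763 bp in Lg7742a. For single-strand loci without size call it was 9229, 14500.5, 23918 and 22907 bp in the same order. The density of size-called loci sets the scale of these distances, so accessions are not ranked by them. Within Lj8627, M chromosomes had a median of 7282 bp and T chromosomes 20258.5 bp.

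**Figure D3:**
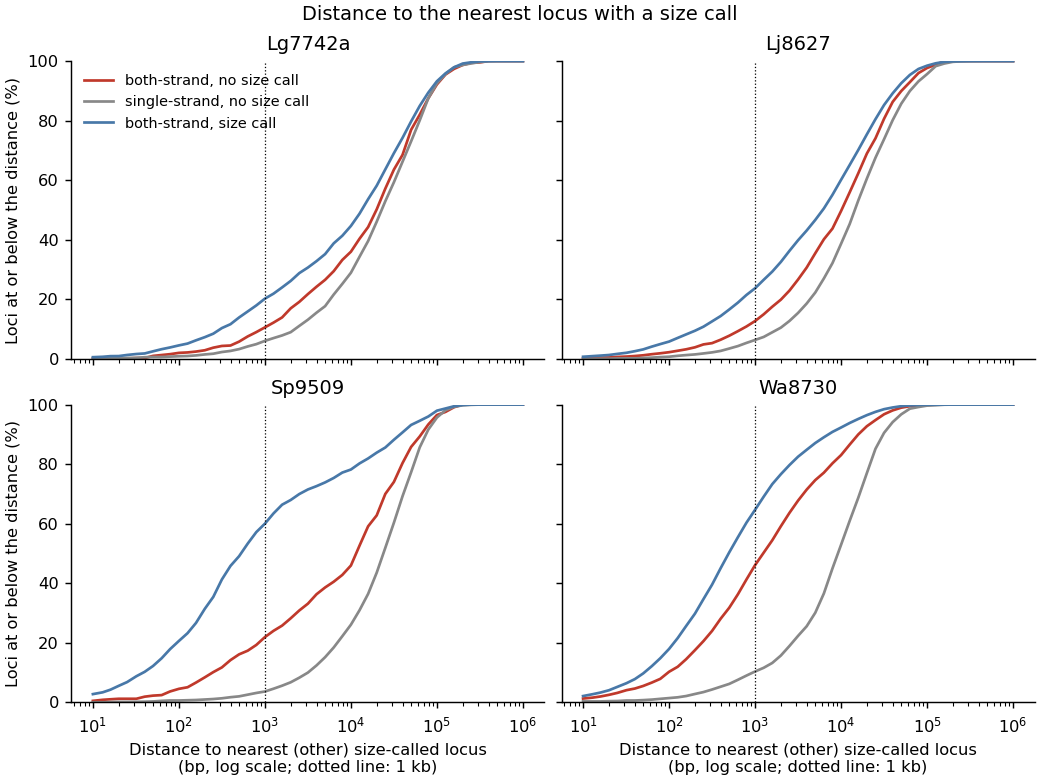
Cumulative share of loci (vertical axis, %) by distance to the nearest other size-called locus on the same chromosome (horizontal axis, bp, log scale), for both-strand loci without size call, single-strand loci without size call and both-strand loci with a size call in each accession. The curve of the first group runs between the other 2 at 1 kb in every panel, at 46.1% below the 64.7% of the size-called curve in Wa8730 and at 21.9% below its 60.0% in Sp9509.

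Distance also varied with depth, so the groups were set side by side at 10 to 19 reads. There a size-called locus lay within 1 kb of 56.9% of both-strand loci without size call in Wa8730, 21.8% of those in Sp9509, 20.4% of those in Lj8627 and 14.5% of those in Lg7742a. For single-strand loci without size call it was 12.6%, 3.81%, 6.03% and 5.01%, and for both-strand size-called loci 62.2%, 44.6%, 43.6% and 43.8%, in the same order. At that depth Wa8730 differed least between both-strand loci without and with a size call. The numbers of both-strand loci without size call behind these shares were 853, 238, 113 and 83. In Lg7742a and Lj8627 the groups lay closer together at 3 or 4 reads. Both-strand loci without size call, single-strand ones and both-strand size-called loci had 5.18%, 4.18% and 6.47% there in Lg7742a. In Lj8627 they had 9.13%, 7.09% and 10.4%. The median distance in Lg7742a at 3 or 4 reads was 24.3 kb for both-strand and 22.1 kb for single-strand loci without size call.

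At 100 reads or more the share within 1 kb was 30.8% of 13 loci in Wa8730 and 8.82% of 34 loci in Sp9509, below the 61.6% and 38.6% of loci with 20 to 49 reads. It was 7.69% of 13 loci in Lj8627 and 0 of 11 loci in Lg7742a, which allows a share of up to 27.3%. Loci over 10 kb from any size-called locus made up 54.0% of the class in Sp9509, 64.0% in Lg7742a, 50.3% in Lj8627 and 17.0% in Wa8730. They held 61.9%, 62.0%, 53.4% and 14.6% of its reads in the same order. Without the locus of 7071 reads the read share of Sp9509 was 51.1%.

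The 24 nt share of the nearest size-called loci lay within counting error of the make-up of all size-called loci in Wa8730 and Lg7742a, and outside it in Sp9509 and Lj8627. In Wa8730 the nearest was 24 nt for 91.1% of the loci (89.7 to 92.3), beside 91.4% of all size-called loci. In Lg7742a it was 32.1% (28.7 to 35.7) beside 33.6%, with 21 nt loci the most frequent neighbours at 44.8%. In Sp9509 the share was lower than the make-up, with 25.4% (22 to 29.2) beside 33.0%, and 21 nt neighbours stood at 45.8%. Single-strand loci without size call had the same 25.4% there (23.7 to 27.1). Lj8627 had a higher share than its make-up, with 49.2% (46.8 to 51.7) beside 43.9%. Its M and T chromosomes differ in make-up: on M the nearest was 24 nt for 56.4% (53.5 to 59.2) beside 53.6%, within counting error, and on T for 32.6% (28.6 to 36.8) beside 26.5%. On T, single-strand loci without size call were also above the make-up, with 30.5% (28.2 to 32.8). These shares depended on the reads counted. With at least 10 reads for both the loci and their neighbours, the share was 25.3% in Lj8627 (19.5 to 32.1) beside a make-up of 18.5% at that depth. Within counting error of their make-up at that depth were M with 35.0% (27.0 to 44.0) beside 33.5% and T with 6.56% (2.58 to 15.7) beside 4.37%. In Lg7742a it was 19.4% (13.6 to 26.9) beside 11.1%, and in Sp9509 28.1% (24.1 to 32.4) beside 35.3%. MicroRNA hairpins were the nearest size-called locus of 9 loci in Lj8627, 8 each in Sp9509 and Wa8730, and 5 in Lg7742a. Of all size-called loci, hairpins were 121 of 19648, 74 of 3155, 112 of 32731 and 75 of 6683 in the same order. All 9 of Lj8627 lay on T chromosomes, where hairpins were 60 of 7009 size-called loci, beside 61 of 12639 on M. For single-strand loci without size call a hairpin was nearest in 15 cases on M and 13 on T. These counts are small, and no lean is read from them.

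**Figure D4:**
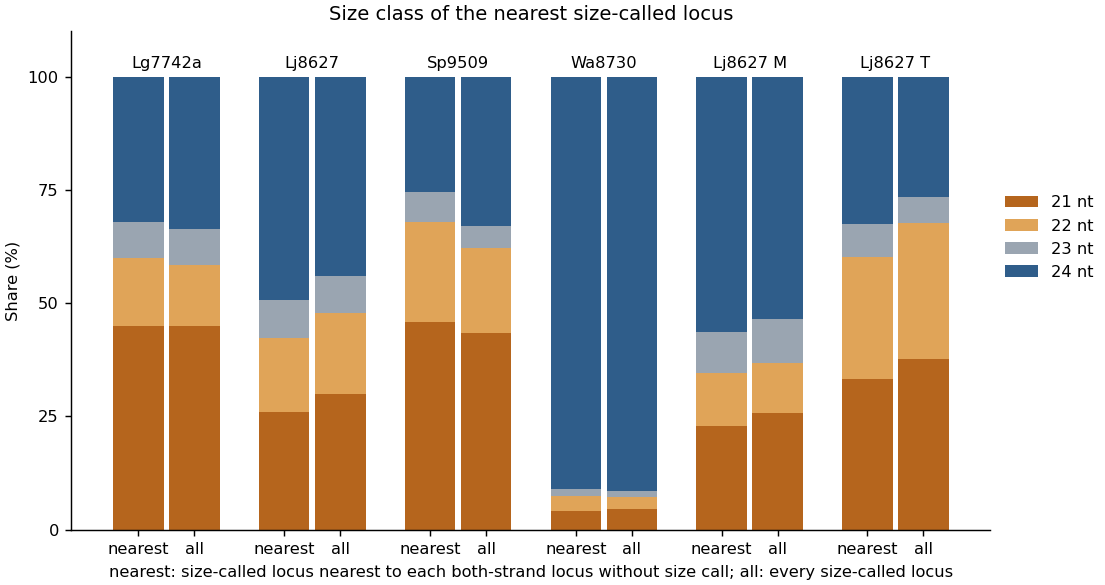
Share (vertical axis, %) of 21, 22, 23 and 24 nt loci among the size-called loci nearest to both-strand loci without size call (left bar) and among all size-called loci on the same chromosomes (right bar), for each accession and for the M and T chromosomes of Lj8627. The 24 nt share of the left bar is 91.1% in Wa8730 and 25.4% in Sp9509, beside 91.4% and 33.0% in the right bar.

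Close neighbours were more often 24 nt for both-strand than for single-strand loci without size call, with intervals that overlapped in Lg7742a and, within Lj8627, on the T chromosomes. Among both-strand loci with a size-called locus within 1 kb, that locus was 24 nt for 95.5% of 851 in Wa8730, 45.5% of 209 in Lj8627, 36.0% of 125 in Sp9509 (28.1 to 44.7) and 34.2% of 73 in Lg7742a (24.4 to 45.7). For single-strand loci without size call it was 76.0% of 242, 29.3% of 232, 8.89% of 90 (4.57 to 16.6) and 18.8% of 149 (13.3 to 25.8) in the same order. Of all size-called loci, 91.4%, 43.9%, 33.0% and 33.6% were 24 nt. Both-strand loci without size call were within counting error of this make-up except in Wa8730 (93.9 to 96.7), and single-strand ones lay below it in every accession. For both-strand size-called loci with another within 1 kb, the 24 nt shares were 96.6%, 39.4%, 52.5% and 32.0%. On the T chromosomes of Lj8627 it was 19.0% of 42 both-strand loci (9.98 to 33.3) and 16.4% of 67 single-strand loci (9.42 to 27.1), and on M chromosomes 52.1% of 167 (44.6 to 59.5) and 34.5% of 165 (27.7 to 42.1).

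Both flanking loci were both-strand 24 nt loci for 973 of 1846, or 52.7% (50.4 to 55.0), in Wa8730. This was below the 58.7% of all nuclear loci there and above the 24.9% of single-strand loci without size call. The shares were 7.91% beside 7.67% of all nuclear loci in Lj8627, 2.61% beside 2.94% in Lg7742a and 2.46% beside 3.89% in Sp9509. Both-strand 24 nt loci made up 70.6% of all flanks in Wa8730, slightly below their 75.3% of all nuclear loci. Another both-strand locus without size call made up 14.0% of flanks, beside 9.21% of loci, in Sp9509. In Lj8627 the flanks had 8.52% beside 6.58% of loci, in Wa8730 6.45% beside 5.0%, and in Lg7742a 7.55% beside 7.0%, nearly the share in the list.

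Some loci of the class lay in runs, counted where each was within 10 kb of the next. Runs took in 127 loci of Sp9509 (22.3%), 378 of Wa8730 (20.5%), 125 of Lj8627 (7.61%) and 50 of Lg7742a (7.26%). They held 35.4%, 24.1%, 7.50% and 24.9% of the reads of the class in the same order. No size-called locus lay inside 38 of the 51 runs of Sp9509, 47 of 59 in Lj8627, 14 of 21 in Lg7742a and 71 of 170 in Wa8730. Most runs had fewer than 3 loci, which leaves little room for a locus between them. Of the runs of 3 or more, 5 of 10 in Sp9509, 5 of 6 in Lj8627, 0 of 1 in Lg7742a and 4 of 26 in Wa8730 had none inside. Runs of other kinds of loci were not counted.

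The largest runs held 10 loci. Sp9509 had 2 of that size: one on chr7 over 29.2 kb, from 5524239 to 5553428, with 4224 reads, and one on chr5 over 24.6 kb, from 4416252 to 4440812, with 3043 reads. Together they contain 3 of the 5 loci with most reads of that accession. No size-called locus lay inside either, while 2 single-strand loci without size call, with 4535 reads, lay inside the run on chr7 and 4, with 4794 reads, inside that on chr5. Just outside both runs, however, lay 22 nt loci of many reads. One of 5893 reads began at 5553648 on chr7, and one of 1165 reads ended 152 bp before the run on chr5. In Lg7742a a run of 10 loci on chr9 over 37.1 kb, from 6055961 to 6093056, held 479 reads, with 6 single-strand loci without size call and 3 size-called loci inside. The largest run of Lj8627 had 4 loci and 86 reads, on chr20M from 5955039 to 5959927, and those of Wa8730 had 5.

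Loci of equal length recurred in Wa8730. Of its 39 loci of 50 reads or more, 9 shared their exact length with another on another chromosome, beside 6 of 66 in Sp9509, 0 of 21 in Lj8627 and 0 of 19 in Lg7742a, where a share of up to 14.3% and 15.8% is allowed by these numbers. A length of 785 bp occurred 5 times, on chr1 with 102 reads, chr4 with 100, chr17 with 98, chr6 with 96 and chr7 with 78. A length of 732 bp occurred on chr7, from 4592572 to 4593303, and on chr15, from 7522963 to 7523694, with 152 reads each. On chr6, a locus of 583 bp from 10231551 to 10232133 with 65 reads was followed after 429 bp by the one of 785 bp, from 10232563 to 10233347. On chr7 the same lengths stood at the same spacing of 429 bp, from 4572286 to 4572868 with 95 reads and from 4573298 to 4574082 with 78 reads. In Sp9509 the equal lengths were 422, 423 and 569 bp. Lengths of 422 and 423 bp lie between 401 and 425 bp, where 68.6% of its class lay. Equal lengths were not counted among other kinds of loci, so no background share stands beside these numbers. The loci of equal length were singled out after their values were seen, and their sequences were not compared. The placement of reads that match several loci is not known from the sources used here.

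The M and T chromosomes of the hybrid Lj8627 could be compared within the same libraries. Both-strand loci without size call numbered 1149 on M chromosomes and 494 on T chromosomes, a ratio of 2.33 (2.09 to 2.58). All nuclear loci together leaned to M less, 15872 to 9081 or 1.75 (1.70 to 1.79), also with more on M in 21 of 21 same-numbered pairs. In the class, M had more in 21 of 21 pairs, with ratios from 1.12 on chr20 to 4.45 on chr12. Per Mb spanned M chromosomes had 3.41 and T chromosomes 1.19, which gives a ratio of 2.86. Every M chromosome was denser than its T partner, by 1.85 on chr20 up to 5.70 on chr12.

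Over all depths, the lean to M overlapped with that of both-strand size-called loci as a whole, 2.05 (1.98 to 2.13), which had more on M in 21 of 21 pairs as well. With at least 10 reads the intervals did not overlap. The ratio was then 1.92 (1.41 to 2.61) for the class and 1.08 (1.01 to 1.16) for both-strand size-called loci. Over all depths, the lean of the class was above that of single-strand loci without size call, 1.32 (1.23 to 1.41), and of both-strand 21 nt loci, 1.35 (1.26 to 1.44). It was below that of both-strand 23 nt loci, 3.31 (2.86 to 3.84), and 24 nt loci, 4.06 (3.81 to 4.32), and on the other side of equality from both-strand 22 nt loci, 0.725 (0.667 to 0.788). Split by reads, the ratio of the class was 2.27 at 3 or 4 reads, 2.57 at 5 to 9, 1.76 at 10 to 19 and 3.89 at 20 to 49. The last rested on 35 loci on M and 9 on T. For both-strand size-called loci the ratio was 2.12, 2.89, 1.37 and 0.620 in the same order. At 100 reads or more the class had 6 loci on M and 7 on T, too few to show a lean either way (0.857, 0.302 to 2.43). In reads the lean was smaller, 8432 on M and 5838 on T, and the leading locus on chr18T alone held 26.9% of the T reads.

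**Figure D5:**
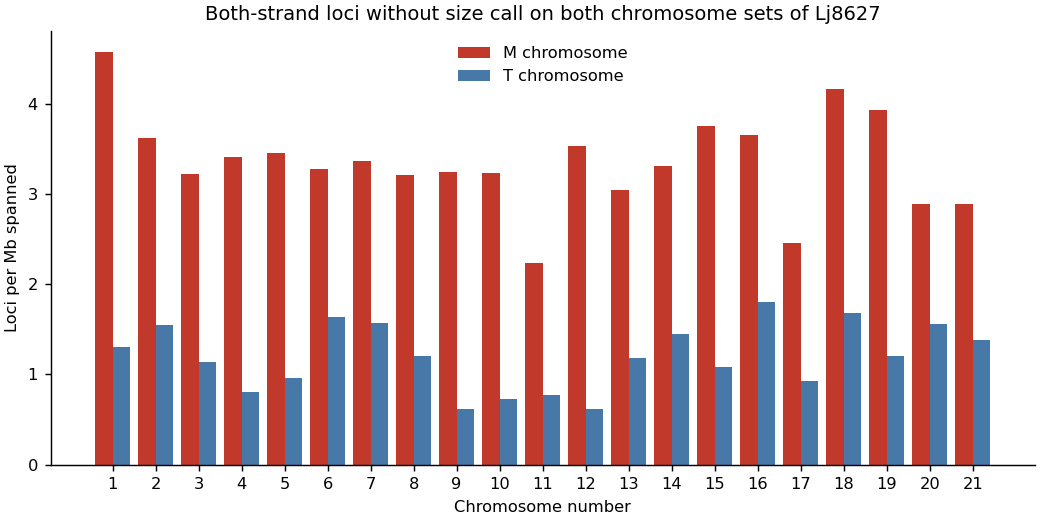
Both-strand loci without size call per Mb up to the last locus (vertical axis) on the M and T chromosome of each of the 21 chromosome numbers of Lj8627 (horizontal axis). The M bar is the higher one at all 21 numbers, from 2.23 per Mb on chr11M to 4.58 on chr1M, while T chromosomes lie between 0.620 and 1.80.

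Of the 13 deepest loci in Lj8627, those with 100 reads or more, 6 lay on M and T chromosomes of the same number, as 3 pairs. The class had 6 loci of that depth on M and 7 on T, over 21 chromosome numbers. Some pairs of equal number are likely from these counts alone, and how many was not computed. On chr19 the M locus had 648 bp and 184 reads at 6.57% of the chromosome, and the T locus, from 686357 to 687011, had 655 bp and 169 reads at 6.34%. The M and T loci of chr8 had 989 bp with 157 reads at 61.0% and 1031 bp with 129 reads at 55.5%. Those of chr7 had 855 bp with 164 reads at 33.05% and 896 bp with 100 reads at 37.7%, so the positions of these pairs matched less well than on chr19. In length the pairs differed by 7, 42 and 41 bp. Lg7742a also had a locus of this kind on chr19, from 913061 to 913713, with 653 bp and 178 reads at 7.37% of the chromosome. These loci were chosen after their values were seen, and whether they are copies of one another was not tested.

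Along the chromosomes the class was spread broadly. Of its loci, 28.1% lay in the outer 10% at either end of a chromosome in Lj8627 (25.9 to 30.3), 24.9% in Wa8730 (22.9 to 26.9), 22.8% in Sp9509 (19.6 to 26.4) and 22.9% in Lg7742a (19.9 to 26.2). All size-called loci had 27.3%, 25.6%, 21.6% and 24.7% there in the same order, within those intervals. On M chromosomes of Lj8627 both-strand loci without size call, with 28.9% (26.3 to 31.6), differed from single-strand ones, with 20.6% (18.9 to 22.4). On T chromosomes both had 26.1%.

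The range of density over chromosomes differed between the lists. Loci of the class per Mb ranged from 3.89 on chr8 to 7.26 on chr15 in Wa8730, from 1.54 on chr15 to 6.19 on chr16 in Sp9509 and from 0.976 on chr3 to 2.10 on chr2 in Lg7742a. Across chromosomes, density went with that of size-called loci in Wa8730 (Spearman's rho 0.88, n = 20) and less in Sp9509 (0.11, n = 20), where rho with single-strand loci without size call was 0.54. In Lg7742a rho with size-called loci was 0.51 (n = 21). In Lj8627 it was 0.82 over M and T chromosomes together (n = 42), 0.55 on M alone and 0.0013 on T alone (n = 21 each). On T chromosomes rho with single-strand loci without size call was 0.60. Chromosomes of an accession share libraries and assembly, so these values are descriptions.

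A window of 1 Mb held on average 1.39 loci of the class in Lg7742a and 2.13 in Lj8627, against 5.11 in Wa8730 and 3.90 in Sp9509. The fullest window held 15 on chr7 of Sp9509, from 5 to 6 Mb, where the run of 10 lies. The highest number was 14, in 3 windows, for Wa8730, 12 at the start of chr4M of Lj8627 and 11 on chr9 of Lg7742a, from 6 to 7 Mb. The window of Sp9509 had 17 size-called loci, below the mean of 21.6. That of Lj8627 had 67, above the mean of 36.3 on M chromosomes and of 25.4 on M and T together.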

How the data were processed

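The deposited counts are whole, unnormalized numbers of reads per locus, and the authors pooled 3 replicates for each list. Per the files themselves, loci came from ShortStack on assembly asm202106v1, or asm3v1 for Sp9509. NEXTflex libraries were built from size-enriched RNA, per the labels' protocols. Among tools, fastp 0.20.1 and deepTools appear in the submitters' processing notes. The sources used here do not give read placement or locus thresholds, and library depth was not used here.

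Over all listed loci, Sp9509 had 7197515 reads, Wa8730 5649845, Lj8627 5394332 and Lg7742a 5005362. Mature and star lines were left out. Shares have 95% Wilson intervals, and ratios intervals from the binomial share of their sum; both cover counting error only. Distances are edge to edge on the same chromosome. Because replicates are pooled, no test was run. Scripts were tested on simulated lists. Named were the 5 loci with most reads, the longest, the one with most reads per kb and the fullest 1 Mb window of each accession. Members, groups and rules were chosen with earlier results of these data known. Computations used Python 3.11.15, pandas 2.3.3, numpy 2.4.6, scipy 1.17.1 and matplotlib 3.10.9.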

Additional observations from a re-analysis of the deposited data

Results flagged for a closer look

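Both-strand loci without size call also lay outside the numbered chromosomes, on the chloroplast, the mitochondrion and unplaced sequence, which the report does not use. They held 1316 reads in 19 loci of Lg7742a, 5195 reads in 83 loci of Lj8627, 18446 reads in 55 loci of Sp9509 and 803 reads in 30 loci of Wa8730. Every listed locus holds at least 3 reads, so these sums could not lie below the 3 reads that a count of 0 allows, and no control samples exist to compare them with. In Sp9509, 14448 of these reads lay on the chloroplast sequence.

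The 24 nt share of the nearest size-called loci departed from the 24 nt share of all size-called loci in opposite directions. It was 5.33 percentage points above in Lj8627 and -7.52 percentage points, that is below, in Sp9509. The difference between accessions was not tested, because replicates are pooled. In Sp9509, single-strand loci without size call had -7.60 percentage points, so the value is not particular to both-strand loci. In Lj8627 the departure was 2.83 points on M chromosomes alone and 6.11 on T chromosomes alone. Single-strand loci without size call had -0.765 points in Lj8627 as a whole, -0.799 on M and 3.97 on T. A share above the make-up on T is thus not particular to both-strand loci.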

How the results depend on the processing

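No paired analysis was possible because every list sums its 3 replicates; leaving out a replicate was not possible for the same reason. The M and T split of nearest neighbours, also at 10 reads, and the minimum of 100 reads for the M to T ratio were chosen after seeing the data. Where a minimum or subset changed a value, fewer loci entered it, and no other cause was tested. Total library depth was not used here, so what it limits was not measured. Of 104 alternative values, 46 stayed within the counting interval, or within 1.5 times for numbers of loci.

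In the order Lg7742a, Lj8627, Sp9509 and Wa8730, the number of loci was 11, 13, 34 and 13 with at least 100 reads, and 134, 154, 312 and 847 with at least 10 scaled reads. With at least 5 reads it was 361 in Lg7742a and 756 in Lj8627, and with at least 10 reads 1056 in Wa8730, 178 in Lj8627 and 134 in Lg7742a. With at least 10 reads the share of nuclear loci was 4.04%, 2.68% and 3.67% in Lg7742a, Lj8627 and Wa8730, and the both-strand share of loci without size call 10.01%, 10.05% and 40.6%. Median reads were then 15, 14, 19 and 14, and median lengths 526.5, 525.5, 420 and 419 bp, in the order of 4. The share of nuclear reads was 0.854%, 1.34%, 1.51% and 2.09% without hairpins, and 0.129%, 0.218%, 0.259% and 0.445% without the 5 leading loci.

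A size-called locus lay within 5 kb of 26.6%, 35.4%, 38.6% and 74.6%, and within 1 kb between midpoints of 6.10%, 8.40%, 12.5% and 31.3%. With at least 10 reads on both sides the 1 kb share was 7.87% in Lj8627 and 51.0% in Wa8730. The 24 nt share of nearest loci was then 19.4% in Lg7742a, 25.3% in Lj8627 and 93.3% in Wa8730. In Lj8627 it was 52.1% within 10 kb, 56.4% on M and 32.6% on T chromosomes, and with at least 10 reads 35.0% on M and 6.56% on T. With at least 10 reads the outer 10% at either end held 15.7% in Lg7742a and 22.5% in Lj8627. The M to T ratio was 1.92 with at least 10 reads, 2.86 per Mb, 0.857 (reversed) with at least 100 reads, and 2.27 to 2.39 with each of 21 chromosome pairs left out.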
